A study of Mus musculus with 34 samples.

Results

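The genes described here are 7 cyclins, Ccnd2, Ccnd3, Ccne1, Ccne2, Ccna2, Ccnb1 and Ccnb2, and 3 cyclin-dependent kinases (CDKs), Cdk2, Cdk4 and Cdk6. They were taken by gene symbol and are 10 of the 23812 gene rows of the RNA table. Each of the 10 has 1 row, and all 10 passed the filter on low values. The cells are mouse splenic B cells of the CD43- fraction, from mice that the series text writes as C56BL/6J, 6 to 8 weeks old. The activated group was grown for 3 days in LPS, a bacterial lipopolysaccharide that drives B cells into division, at 10 µg/ml (1 field of the labels writes the dose per µl), and the resting group is the control named in the titles. For the resting samples, too, the labels describe the LPS culture, so how they were handled is not settled. RNA-seq covered 2 resting and 2 activated samples. Open chromatin (FAIRE-seq), enhancer activity on a reporter plasmid (STARR-seq), the histone marks H3K4me3 and H3K27ac, and Hi-C contacts between genome regions are described for activated cells only. No label says whether replicates came from different mice, so a p-value reflects the spread of these samples, which may be technical.

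Cyclins have no enzyme activity of their own. Each binds a CDK and switches it on for 1 stage of the cell cycle, and most are then destroyed by the proteasome. D-type cyclins with Cdk4 or Cdk6 respond to growth signals in G1 and phosphorylate the retinoblastoma protein, E-type cyclins with Cdk2 drive entry into S phase, cyclin A2 acts in S and G2, and B-type cyclins with Cdk1 drive mitosis. In B cells, cyclin D2 is known as the D-type cyclin induced by mitogens, and cyclin D3 as the one needed in germinal centres.

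The promoter table from RefSeq (build GRCm38.p6) held 8 entries for 7 of the 10 genes: Ccnb1, Ccnb2, Ccne1, Cdk2, Cdk4, Cdk6 and, with 2 start sites 88.4 kb apart, Ccnd3. Ccnd2, Ccne2 and Ccna2 had no entry. The 250 bases upstream of the start are shown for the 2 B-type cyclins, whose RNA moved together, and for Cdk2 and Cdk4, the kinase that did not pass the test and the one that rose most. They are written 5′ to 3′ on the strand of the gene, and capitals mark every match to 4 motifs on either strand. The motifs were the CCAAT box (CCAAT), the CHR element of mitotic genes (TTTGAA, with the variant TTCGAA), the E2F core (TTCCCGC, with the variants TTGGCGC, then TTCGCGC, then TTGCCGC) and the E-box of Myc-like factors (CACGTG).
Ccnb1 (GRCm38.p6 chr13:100786487-100786736, minus strand): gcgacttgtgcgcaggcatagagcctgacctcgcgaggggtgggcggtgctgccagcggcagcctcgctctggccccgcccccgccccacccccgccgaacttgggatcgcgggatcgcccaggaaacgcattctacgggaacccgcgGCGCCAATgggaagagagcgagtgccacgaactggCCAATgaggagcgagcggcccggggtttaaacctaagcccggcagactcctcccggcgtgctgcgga
Ccnb2 (GRCm38.p6 chr9:70421555-70421804, minus strand): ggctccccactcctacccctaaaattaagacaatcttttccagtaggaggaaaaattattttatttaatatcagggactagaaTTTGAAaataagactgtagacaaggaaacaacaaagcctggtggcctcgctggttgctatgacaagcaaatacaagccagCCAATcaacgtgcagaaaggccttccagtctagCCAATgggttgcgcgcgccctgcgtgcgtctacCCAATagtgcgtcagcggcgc
Cdk2 (GRCm38.p6 chr10:128705052-128705301, minus strand): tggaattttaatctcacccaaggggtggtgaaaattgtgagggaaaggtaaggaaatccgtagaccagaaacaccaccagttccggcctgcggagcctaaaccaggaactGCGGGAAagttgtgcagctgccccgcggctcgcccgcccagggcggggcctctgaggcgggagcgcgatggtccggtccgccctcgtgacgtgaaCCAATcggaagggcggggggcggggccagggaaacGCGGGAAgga
Cdk4 (GRCm38.p6 chr10:127063285-127063534, plus strand): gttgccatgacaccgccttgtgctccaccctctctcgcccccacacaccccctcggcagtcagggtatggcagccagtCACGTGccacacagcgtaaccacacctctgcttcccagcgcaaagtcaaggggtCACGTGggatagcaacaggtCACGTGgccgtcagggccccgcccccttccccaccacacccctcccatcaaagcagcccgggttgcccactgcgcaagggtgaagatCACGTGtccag
Ccnb1 held 2 CCAAT boxes, starting 99 and 67 bases before the start site, and Ccnb2 held 3, at 87, 54 and 21 bases. The boxes stood 32 bases apart in Ccnb1 and 33 and 33 bases apart in Ccnb2. Of all 32851 promoter entries cut to the same 250 bases, 33.8% held at least 1 CCAAT box, 10.1% at least 2 and 2.79% at least 3. Ccnb1 also held 1 E2F core at 102 bases, which overlaps its first CCAAT box, and Ccnb2 held 1 CHR element at 167 bases. E2F cores were found in 7.89% of entries and CHR elements in 17.1%. Cdk2 held 2 E2F cores, at 140 and 10 bases, and a CCAAT box at 45 bases, and 0.776% of entries held 2 or more E2F cores. Cdk4 held 4 E-boxes, at 172, 118, 98 and 11 bases, and 6.02% of entries held at least 1 E-box and 0.0213% at least 4. Cdk6 held 1 E-box, the downstream start of Ccnd3 held 1 CCAAT box, and the upstream start of Ccnd3 and Ccne1 held no match to these letters. The motifs were chosen with these sequences known, and a match is a description of letters, not a bound site. Bases past the start site were not searched, so a match there would be missed.

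After 3 days of LPS, 8 of the 10 genes had higher RNA and none was lower. Values are taken to be in FPKM, that is, fragment numbers set against transcript length and library depth. The unit is not named with the data, and the shares and orders of genes given below hold only if it is set against length. A difference is activated minus resting on log2(FPKM + 1), tested with limma across 10863 genes at an adjusted p under 0.05. Ccna2, Ccnb1 and Ccnb2 rose most, then Ccnd2, and Ccne2, Cdk4, Ccne1 and Cdk6 rose less. Ccnd3 and Cdk2 did not pass. The added 1 understates the change of genes at low level: with pseudocount 0.1 the log2 difference was 4.47 in place of 3.67 for Ccnb1 and 2.76 in place of 2.01 for Ccne2. For Ccnd1, a cyclin outside the 10 genes, it was -4.94 in place of -3.50. Over all tested genes, 28.2% were called higher and 26.2% lower, and the median difference was 0.03, against a median of 1.81 over the 10 genes. Scaling to equal upper quartiles moved the median of all genes to -0.09, equal sums to -0.07 and quantile normalization to -0.02, and the same number of the 10 genes was called under each. Both activated values stood above both resting values in 9 of the 10 genes, all but Ccnd3, and in 41.5% of the tested genes. The cyclin and kinase RNAs were measured in bulk, so more cells with such RNA and more RNA per cell cannot be told apart.

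**Figure D1:**
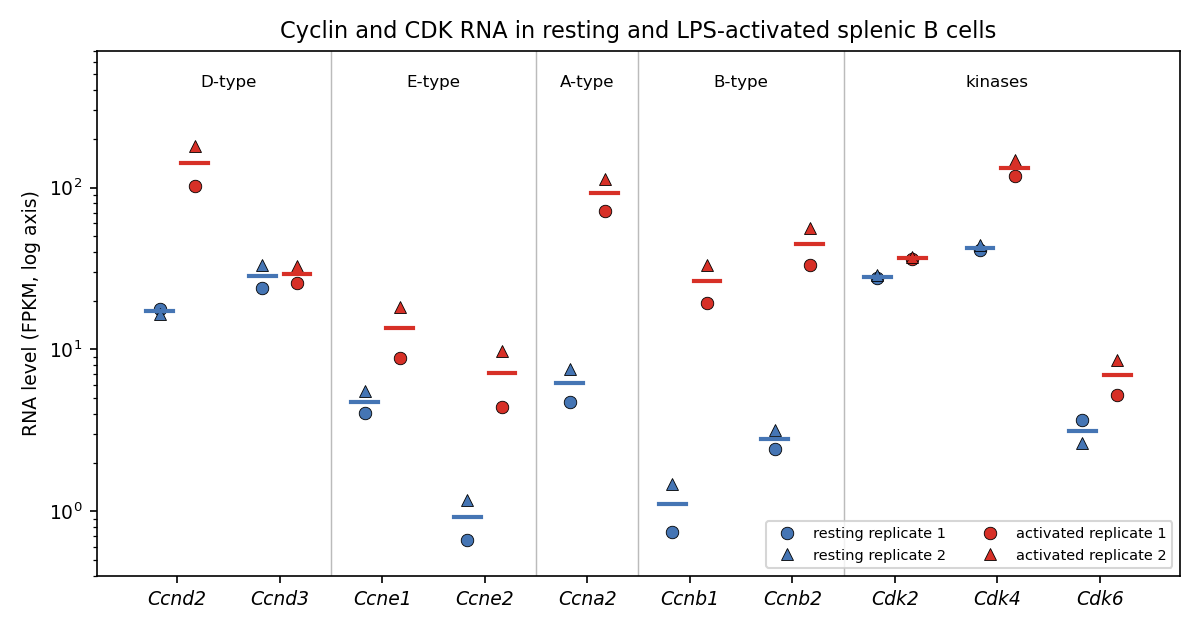
RNA level of each gene (FPKM, log axis) in every sample, with resting samples in blue and activated samples in red, circles for replicate 1, triangles for replicate 2, and a line at the mean of each group. Activated values lie above resting values in every gene but Ccnd3, and the widest gaps are those of Ccna2, Ccnb1, Ccnb2 and Ccnd2.

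Among the D-type cyclins, Ccnd2 was at 17.8 and 16.5 FPKM in resting samples and at 101.8 and 180.7 in activated samples. The groups were far apart, and the activated samples differed from each other 1.78-fold. Its log2 difference was 2.91 ± 0.28 (SE, adjusted p = 0.000345 by limma), a 7.53-fold rise on the log2(FPKM + 1) scale. Ccnd3 was at 23.8 and 33.4 FPKM in resting and at 25.7 and 32.9 in activated samples, and the groups overlapped. Its log2 difference was 0.05 ± 0.22 (SE, adjusted p = 0.874 by limma), and the sign turned with scaling to equal sums, upper quartiles or quantiles.

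Ccnd1, the D-type cyclin outside the 10 genes, was at 13.6 and 15.6 FPKM in resting samples and at 0.370 and 0.382 in activated samples, a log2 difference of -3.50 ± 0.16 (SE, adjusted p = 4.34e-05 by limma). Ccnd1 was not tested without either resting sample, since 1 sample with at least 1 FPKM then remained. Together the 3 D-type cyclins changed order. Ccnd3 was the most abundant in resting samples, at 43.1% and 51.0% of their summed FPKM, and Ccnd2 in activated samples, at 79.6% and 84.4%. The share of Ccnd2 was 28.8% ± 5.05 in resting and 82.0% ± 3.44 in activated samples (SD, n = 2 each), a difference of 53.2 percentage points, with p = 0.333 by a two-sided exact permutation test, the smallest p that 2 against 2 samples allow. The share of Ccnd1 was 24.6% and 23.8% in resting samples and 0.289% and 0.178% in activated samples.

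Markers of macrophages and myeloid cells were lower in activated samples, as Ccnd1 was. So were the summed markers of T cells, natural killer cells, red cell precursors and B cells, given below. All 6 listed myeloid markers were detected in resting samples, where they summed to 379 and 728 FPKM, with Lyz2 at 57.0 and 363. They summed to 0.507 and 7.0 in activated samples, with C1qa and C1qb at 0 in both, and 5 of the 6 were called lower (these 5 were not tested without either resting sample). Csf1r, the receptor of a macrophage growth factor, was at 36.1 and 42.0 FPKM in resting and at 0.0852 and 0.0400 in activated samples. The part of any of these cell types in the Ccnd1 level was not tested.

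Both E-type cyclins rose. Ccne1 was at 4.02 and 5.5 FPKM in resting and at 8.84 and 18.3 in activated samples, a log2 difference of 1.27 ± 0.32 (SE, adjusted p = 0.0150 by limma). The call on Ccne1 was lost without resting replicate 1 (adjusted p = 0.0913) and when low genes were kept in (adjusted p = 0.0549). Ccne2 was at 0.664 and 1.18 FPKM in resting and at 4.42 and 9.79 in activated samples. Its lower activated value was more than its higher resting value, and its log2 difference was 2.01 ± 0.33 (SE, adjusted p = 0.00279 by limma). Ccne1 remained the more abundant of the pair in every sample, with a share of 84.1% ± 2.48 in resting and 65.9% ± 1.04 in activated samples (SD, n = 2 each). The fall of 18.2 percentage points gave p = 0.333 by the two-sided exact permutation test, and the shares of the groups did not overlap. With 1 added to each value the share of Ccne1 dropped by 10.7 points.

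Ccna2, the A-type cyclin of dividing somatic cells, was at 4.76 and 7.58 FPKM in resting and at 71.3 and 113.2 in activated samples. The log2 difference was 3.69 ± 0.28 (SE, adjusted p = 0.000149 by limma), and the lowest activated value was far above the highest resting one. Ccna1, known from the germ line, was listed at 0 in all 4 samples.

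The B-type cyclins rose together. Ccnb1 was at 0.744 and 1.47 FPKM in resting and at 19.3 and 33.4 in activated samples, a log2 difference of 3.67 ± 0.29 (SE, adjusted p = 0.000167 by limma). Ccnb2 was at 2.41 and 3.19 FPKM in resting and at 33.4 and 56.2 in activated samples, a log2 difference of 3.55 ± 0.26 (SE, adjusted p = 0.000126 by limma). Ccnb2 had the higher level per length in all 4 samples. The share of Ccnb1 in the pair was 23.6% and 31.6% in resting and 36.7% and 37.3% in activated samples, 9.39 percentage points higher on average (two-sided exact permutation p = 0.333), and the groups did not overlap. That difference was 1.88 points with 1 added to each value, 5.38 without resting replicate 1 and 13.4 without resting replicate 2. Cdk1, the kinase partner of the B-type cyclins, was at 1.63 and 2.88 FPKM in resting and at 27.5 and 47.1 in activated samples (log2 difference 3.53 ± 0.29 SE, adjusted p = 0.000203 by limma). RefSeq lists pseudogenes named Ccnb1-ps, Ccnb2-ps and Ccnd3-ps, so the values of these 3 genes are uncertain to the extent that reads were shared with the copies.

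Summed by class, D-type cyclins held 81.4% and 77.6% of cyclin FPKM in resting samples and 48.2% and 48.1% in activated samples. Cyclin A2 went from 7.02% and 8.98% to 26.9% and 25.4%, and B-type cyclins from 4.66% and 5.53% to 19.9% and 20.1%. E-type cyclins held 6.92% and 7.91% in resting and 5.0% and 6.32% in activated samples. The summed cyclin RNA was mostly of D type in resting samples, and nearly evenly split between D type and the A and B types in activated ones.

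**Figure D2:**
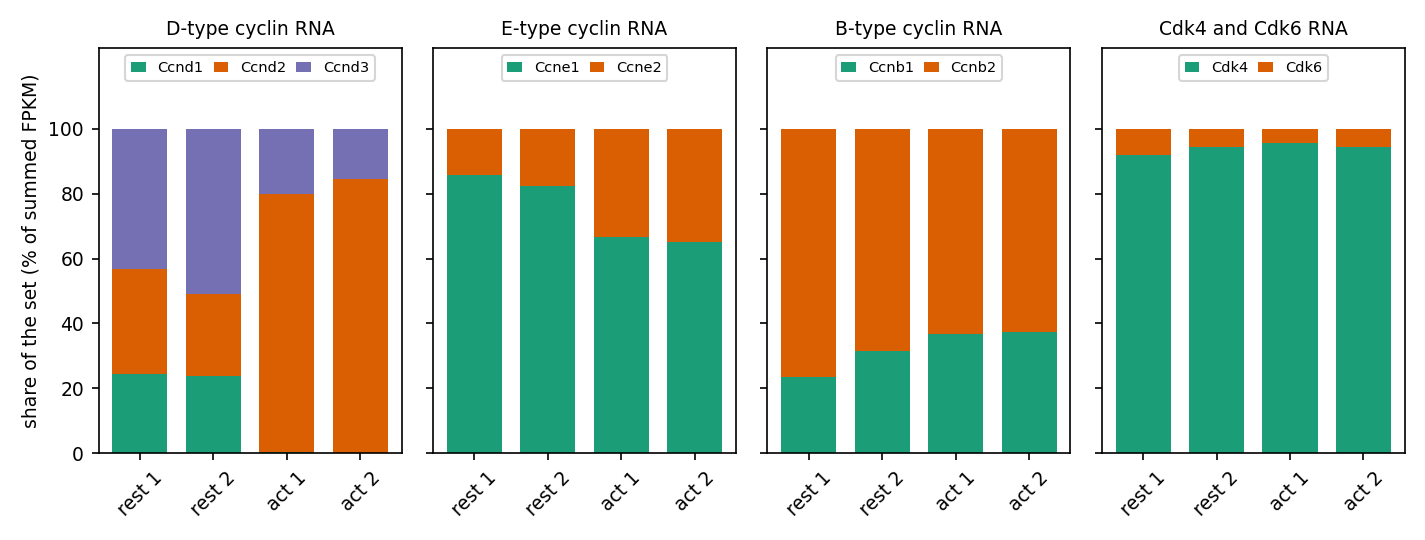
Stacked shares of summed FPKM (percent, from 0) in each of the 4 samples for the D-type cyclins, the E-type cyclins, the B-type cyclins and the pair Cdk4 and Cdk6. Ccnd2 holds 79.6% and 84.4% of D-type RNA in activated samples, where Ccnd1 is too small to see, while Cdk4 holds over 90% of its pair in every sample.

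Of the kinases, Cdk4 was at 40.9 and 44.3 FPKM in resting and at 117.6 and 148.2 in activated samples, a log2 difference of 1.61 ± 0.20 (SE, adjusted p = 0.000971 by limma). Cdk6 was at 3.65 and 2.65 FPKM in resting and at 5.25 and 8.64 in activated samples, a log2 difference of 0.92 ± 0.25 (SE, adjusted p = 0.0197 by limma). The groups of Cdk6 did not overlap but were close, and its call was lost without resting replicate 2 (adjusted p = 0.111), without activated replicate 2 (adjusted p = 0.0604) and when low genes were kept in (adjusted p = 0.0573). Cdk6 made up 8.19% and 5.64% of the pair in resting and 4.28% and 5.51% in activated samples (difference -2.02 percentage points, two-sided exact permutation p = 0.333, -0.745 points without resting replicate 1, -3.30 without resting replicate 2 and -3.18 with 1 added to each value). Cdk2, the partner of the E-type and A-type cyclins, was at 27.5 and 28.8 FPKM in resting and at 36.3 and 37.4 in activated samples. Its replicates were close and its groups did not overlap, but its log2 difference of 0.38 ± 0.16 (SE, adjusted p = 0.0801 by limma) did not pass.

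The order of the levels differed between the groups. By group mean, the resting order was Cdk4, Ccnd3, Cdk2, Ccnd2, Ccna2, Ccne1, Cdk6, Ccnb2, Ccnb1 and Ccne2. The sample ranges of Ccnd3 and Cdk2, of Ccna2 and Ccne1, of Cdk6 and Ccnb2, and of Ccnb1 and Ccne2 overlapped there. The activated order was Ccnd2, Cdk4, Ccna2, Ccnb2, Cdk2, Ccnd3, Ccnb1, Ccne1, Ccne2 and Cdk6. There Ccnd2 and Cdk4, Ccnb2 and Cdk2, Ccnd3 and Ccnb1, Ccne1 and Ccne2, and Ccne2 and Cdk6 overlapped. Cyclin A2 and both B-type cyclins stood below Cdk2 in resting samples, and Ccna2 stood above it in both activated samples.

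Activated replicate 2 was higher than activated replicate 1 in all 10 genes, by 1.03-fold for Cdk2 to 2.21-fold for Ccne2, with a median of 1.66. Over 9981 genes with at least 1 FPKM in both activated samples the median ratio was 1.05, and 58.6% were higher in replicate 2. Resting replicate 2 was higher in 8 of the 10 genes, all but Ccnd2 and Cdk6, with a median ratio of 1.34. Over 10313 genes with at least 1 FPKM in both resting samples, 62.1% were higher in replicate 2 and the median ratio was 1.05. The low values of the table put 1 fragment at 1.6 times more FPKM in activated replicate 1 than in activated replicate 2, so replicate 1 was the shallower library. Markers of red cell precursors summed to 415 FPKM in the first resting library, to 2448 in the other one, and to 13.2 and 5.04 in the activated samples, and 5 of the 7 markers with a single row were under 1 FPKM in both activated samples. Markers of T cells summed to 9.94 and 14.9 FPKM in resting and to 0.0270 and 0.0337 in activated samples, with Cd3e, Cd3d and Cd3g at 0 in both, and those of natural killer cells to 6.35 and 13.7 and to 1.01 and 0.392. The 5 B cell markers summed to 2922 and 3330 FPKM in resting and to 1808 and 1328 in activated samples, and the 4 plasma cell markers to 81.1 and 129 and to 1638 and 1802. Jchain made up most of the plasma cell sum in activated samples (1173 and 1255 FPKM). Of these 4 markers 3 were called higher, while Sdc1 did not pass, at 3.46 and 3.76 FPKM in resting and 2.16 and 5.17 in activated samples. The part of depth or of other cells in the cyclin values was not tested.

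Some of the 10 loci overlap other genes, and no strand is given, so reads from an overlap cannot be assigned to either gene. How such reads were counted is not given in the sources used here, and their number was not measured. Ccna2 overlaps Exosc9 by 864 bases (13.3 and 11.8 FPKM in resting, 22.8 and 25.2 in activated samples). Ccne2 overlaps Ints8 by 5623 bases, at 6.61 and 9.24 FPKM in resting and 11.1 and 13.4 in activated samples, above Ccne2 in every sample. Ccnd3 overlaps Bysl by 359 bases, at 4.65 to 15.5 FPKM over the 4 samples. Ccnd2 overlaps 9330179D12Rik, at 0.252 to 0.940 FPKM. Tspan31 starts 7 bases after the end of Cdk4 and was at 18.9 and 18.2 FPKM in resting and at 56.6 and 48.3 in activated samples.

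Other genes that act on these cyclins and kinases were taken from 9 lists of 79 genes. Of these 78 had a single row and 72 were tested, of which 38 were called higher and 13 lower, with a median log2 difference of 0.57. The numbers were 26 and 8 without resting replicate 1, 31 and 4 without resting replicate 2, 28 and 10 without activated replicate 2, and 36 to 38 higher and 14 to 17 lower under the 3 scalings. Of the cyclins left out of the 10 genes, Ccnd1 fell, Ccnf rose (2.71 ± 0.25 SE, adjusted p = 0.000273 by limma), and Ccna1 and Ccnb3 were listed at 0 and not tested. The mitotic kinase and the CDK-activating kinase gave 3 of 4 genes higher, Cdk1, Mnat1 at 1.28 and Ccnh at 0.65, while Cdk7, the catalytic subunit that phosphorylates CDKs, was at -0.22 (adjusted p = 0.309 by limma). All 5 phosphatases and inhibitory kinases of CDKs rose, led by Cdc25c (2.70), Wee1 (2.13) and Cdc25a (1.97) on the log2 scale. The number was 3 without resting replicate 1 or activated replicate 2, and Cdc25c could not be tested without either activated sample. Cdc25 phosphatases remove the inhibitory phosphate that Wee1 puts on the kinases, and both sides of this switch were higher.

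Of the CDK inhibitors, 4 of 5 tested genes rose and 1 fell. Cdkn2a, which encodes an inhibitor of Cdk4 and Cdk6 and, in another reading frame, Arf, was at 0.150 and 0.152 FPKM in resting and at 48.8 and 44.4 in activated samples, a log2 difference of 5.37 ± 0.15 (SE, adjusted p = 8.58e-06 by limma). With pseudocount 0.1 the difference of Cdkn2a was 7.54. Cdkn2a and Cdkn2b were at 1 FPKM or more in the activated samples only and were not tested without either of them, which left 2 inhibitors called higher. Cdkn1a, the p53 target p21, rose by 3.25 and Cdkn2b by 2.44 on the log2 scale. Cdkn1b, p27, which restrains Cdk2 in resting cells, went the other way, from 55.2 and 67.6 to 39.8 and 43.3 FPKM (-0.55 ± 0.19 SE, adjusted p = 0.0449 by limma). Its call was lost when low genes were kept in (adjusted p = 0.0684) and without any 1 of the 4 samples (adjusted p from 0.0651 to 0.287 by limma). Cdkn1b was the most abundant inhibitor with a single row in resting samples.

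The genes that destroy cyclins or help CDKs find substrates gave 9 of 13 higher and none lower. They were led by Cdc20 (4.02), an activator of the anaphase-promoting complex, Ube2c (4.02), its ubiquitin-conjugating enzyme, and Cks1b (3.87), a small CDK-binding protein. Of the pocket proteins and E2F factors, 9 of 13 rose, among them Tfdp1 (2.80), E2f8 (2.56) and E2f1 (1.68), and Tfdp2 fell (-0.75, adjusted p = 0.0142 by limma). Of the B-Myb and DREAM genes, which control mitotic promoters, 5 of 7 rose, led by Mybl2 (3.27), Foxm1 (2.70) and Rbbp4 (0.81). That number was 2 without resting replicate 1 and 3 without resting replicate 2 or activated replicate 2.

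Of the 12 cyclins and CDKs of transcription, 1 was called higher, 5 lower and 6 neither, where 26.2% of all tested genes were called lower. The number lower was 3 without resting replicate 1, without resting replicate 2 or without activated replicate 2. Cdk19 fell from 26.7 and 30.2 to 11.8 and 11.7 FPKM (-1.21 ± 0.15 SE, adjusted p = 0.000933 by limma), Cdk13 by -1.10 and Ccnt2 by -0.83, while Cdk8, the close relative of Cdk19 in the Mediator kinase module, rose by 0.70. Of the remaining cyclins and CDKs, 1 of 11 tested was higher and 5 lower. Ccng1, a p53 target, rose by 2.09, and Ccnj (-1.30) and Cdk5 (-0.83) fell on the log2 scale. Without resting replicate 1 the calls on Ccnh, Rbbp4 and Cdk8 were lost (adjusted p of 0.117, 0.097 and 0.0747 by limma). Without resting replicate 2 those on Tfdp2 and Cdk5 were lost (adjusted p of 0.135 and 0.106 by limma), and 1 of the remaining cyclins and CDKs was lower. These counts describe lists chosen with earlier results known and are no test of the lists.

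**Figure D3:**
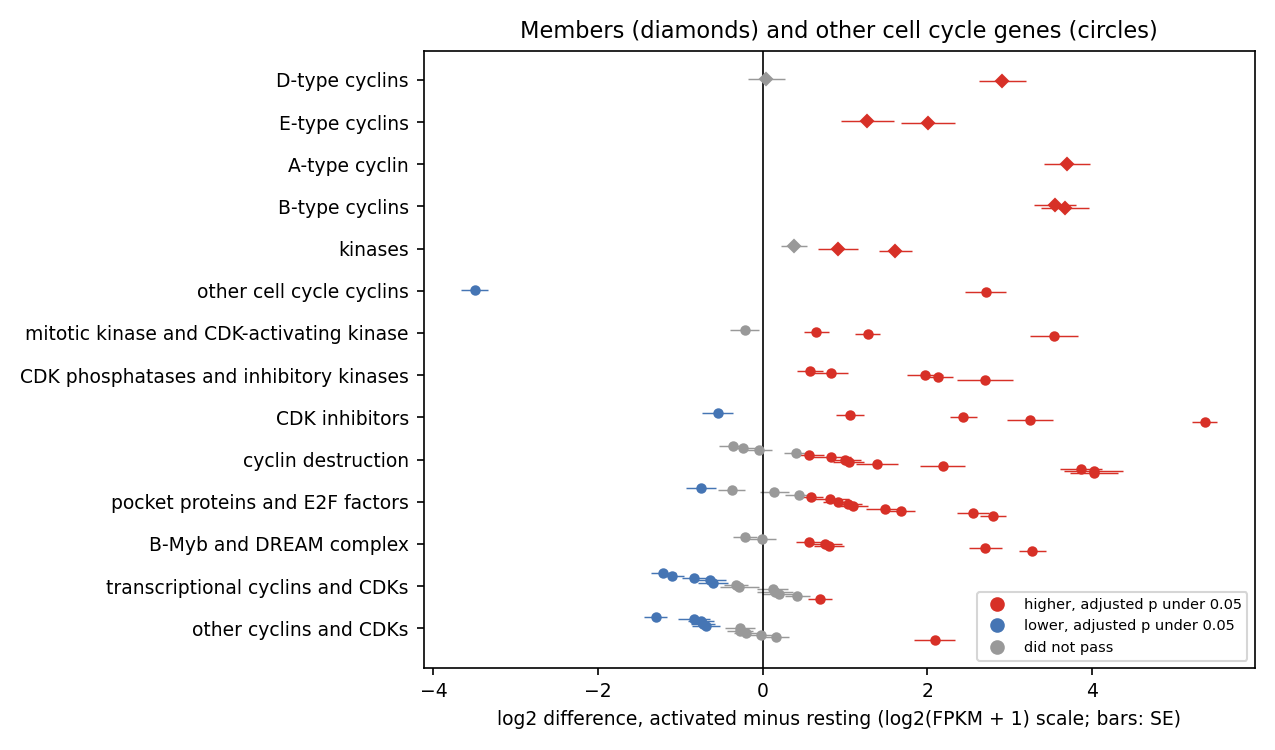
Log2 difference, activated minus resting, on log2(FPKM + 1) with its SE for each tested gene, by list; diamonds are the 10 cyclins and kinases and circles the other cell cycle genes. Red genes passed as higher, blue as lower and grey did not pass, and the lower genes lie mostly in the last 2 lists, beside Ccnd1 at -3.50.

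The genes with the most similar levels over the 4 RNA samples were found by Euclidean distance of log2(FPKM + 1) among tested genes with 1 row. Ccna2 was nearest to Birc5 (distance 0.246) and Top2a (0.630), Ccnb2 to Kif11 (0.318) and Cdca8 (0.371), and Ccnb1 to Cdc45 (0.319) and Sec24d (0.334). Ccne2 was nearest to Cenpk (0.216) and Bard1 (0.238), and Ccne1 to Metrn (0.270) and Nudt1 (0.323). Ccnd2 was nearest to Cd36 (0.318) and Shmt2 (0.443), and Ccnd3 to Nubp2 (0.122) and Csnk2a1 (0.168). Cdk2 was nearest to Lamtor1 (0.136) and Cnot6l (0.137), Cdk4 to Hdgf (0.145) and Cox5a (0.265), and Cdk6 to Kcnk6 (0.258) and Endog (0.265).

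In activated cells, each of the 10 genes had an H3K4me3, an H3K27ac, a FAIRE and a STARR peak within 1 kb of its locus. Over the 23812 loci of the table, 53.8% had an H3K4me3 peak, 49.1% an H3K27ac peak, 56.8% a FAIRE peak and 34.3% a STARR peak. Over the 10863 genes tested for RNA the shares were 90.6%, 89.0%, 92.5% and 60.8%, so such peaks are common at expressed genes. None of the 10 loci overlapped a listed super-enhancer, but the list holds only 48 regions. The share of all loci that overlap one was not computed. Coordinates of loci, peaks and contacts are on mm9 as deposited, while the promoters above are on GRCm38.p6, and the builds were not laid over each other. Peaks have no replicates here, and no resting list was analysed, so the peaks cannot be compared between resting and activated cells.

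In 7 of the genes a STARR peak lay across the locus end that carried H3K4me3. These were Ccne1 (locus chr7:38883002-38892509, peak chr7:38892505-38892805), Ccne2 (locus chr4:11118500-11131926, peak chr4:11118369-11118668) and Ccna2 (locus chr3:36463786-36470918, peak chr3:36470862-36471162). Ccnb1 (locus chr13:101548693-101556441, peak chr13:101556422-101556722) and Ccnb2 (locus chr9:70255495-70269361, peak chr9:70269273-70269573) had the same layout. So did Cdk2 (locus chr10:128134994-128142107, peak chr10:128142051-128142351) and Cdk4 (locus chr10:126500658-126504338, peak chr10:126500381-126500681). Each of these STARR peaks also overlapped a FAIRE and an H3K27ac peak. Their overlap with H3K4me3 follows from the choice of the marked end and is no separate observation. All of these 7 but Ccna2 had no other STARR peak within 1 kb of the locus, and Ccna2 had a second at chr3:36467837-36468136. The share of all loci with a STARR peak across the marked end was not computed, so the 7 have no background to be set against.

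Ccnd2, Ccnd3 and Cdk6 had no STARR peak across the marked end itself. Ccnd2 (chr6:127075726-127101066) had 1 inside the gene at chr6:127097719-127098019, 3.20 kb from the marked end, and the nearest 1 outside at chr6:127102456-127102755. Its H3K4me3 domain was 8315 bases long, and 0.113% of the 16861 H3K4me3 peaks were at least as wide. The H3K27ac peak there measured 7782 bases, with 0.643% of the 23938 peaks at least as wide. Cdk6 (chr5:3344311-3522225) had H3K4me3 over 5263 bases (1.28% at least as wide), 9 H3K27ac peaks, 15 FAIRE peaks and 6 STARR peaks. The STARR peaks of Cdk6 were centred 0.28, 11.5, 38.1, 149.9, 150.6 and 164.5 kb into the gene. Ccnd3 (chr17:47641999-47736637) had 4 H3K4me3, 12 H3K27ac and 12 FAIRE peaks and 5 STARR peaks between 3.06 and 24.9 kb into the gene, with the nearest outside at chr17:47638829-47639128. The H3K4me3 peak at the marked end of Ccnd3 measured 1727 bases and was not its widest. The widest measured 2693 bases, was centred 89.5 kb into the gene and overlapped an H3K27ac peak of 3692 bases. No STARR peak of Ccnd3 overlapped it. The RefSeq starts of Ccnd3 lie 88.4 kb apart. Whether that peak marks the downstream start was not tested, since the builds were not laid over each other. Ccnd3 and Cdk2 were the genes that did not pass the RNA test. Ccnd3 had the most H3K27ac peaks of the 10, while Cdk2 had 2. Longer loci can hold more peaks, but Cdk6, at 178 kb, had 9 and Ccnd3, at 94.6 kb, had 12.

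The deposited Hi-C list is restricted to contacts between enhancers and promoters: 99.97% of its 27903 distinct contacts had a STARR peak at an anchor. Each of the 10 genes had at least 1 contact with an anchor within 1 kb of its locus, against 43.0% of all loci and 81.0% of the tested genes. Reads are pooled over replicates, so a contact has no replicate check. Ccnd3 had 27 contacts, Cdk4 24 and Ccnd2 20, where the median tested gene had 4, and 0.589%, 0.911% and 2.11% of tested genes had at least as many. Cdk6 had 11, Cdk2 10, Ccnb1 8, Ccna2 7, Ccnb2 6, Ccne1 5 and Ccne2 1. With at least 10 reads required, 7 of the 10 genes kept a contact, and Ccne1, Ccne2 and Ccna2, with at most 6, 6 and 9 reads, did not. The share of all tested genes at that threshold was not computed. The same pair of regions can appear at several anchor sizes, and the partner regions that remain after merging overlaps numbered 19 for Ccnd3, 22 for Cdk4 and 16 for Ccnd2. An anchor beside a locus also counts if it lies within 1 kb, as for several contacts of Cdk4 given below. The contact numbers can thus include contacts of neighbouring genes.

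Ccnd2 was linked to gene-free anchors upstream of its marked end. The contact with most reads, 114 (z-score 5.37), joined chr6:127097024-127102024 to chr6:127220048-127225048 across 123 kb. A further 75 reads (z-score 4.43) joined the gene to chr6:127279477-127284477 across 182.5 kb, and 26, 24 and 23 reads joined it to anchors 85.9, 119.3 and 115.7 kb away. Each of these 5 far anchors held a STARR and an H3K27ac peak. In all, 10 of the 19 contacts to other regions of Ccnd2 reached an anchor with no gene of the table. These anchors were not all separate regions. The far anchor of 24 reads overlapped that of 114 reads, and smaller ones of 5 and 7 reads lay inside that of 23 reads. Farther contacts had few reads and reached Ncapd2 and Mrpl51 (8 reads), Usp5 (8), Spsb2 (7), Vamp1 (6), the anchor with Tapbpl, E130112N10Rik and Cd27 (6), Vwf (6), Parp11 (6) and 2310001H17Rik (6). The farthest, with 5 reads, ended at chr6:124692279-124697279 in Atn1, 2405 kb away.

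Cdk6 was linked to regions inside its own locus and to other genes. Its promoter region made contacts of 54 reads (z-score 3.35) across 36.9 kb to chr5:3380070-3385070 and of 65 reads (z-score 3.73) across 150.4 kb to chr5:3493484-3498484, both inside the gene and both over STARR peaks. A contact of 8 reads reached Gm9897, and contacts of 5 or 6 reads reached Fam133b, Dmtf1, Cd36 and, farthest, Gnat3 at chr5:17512557-17517557, 14170 kb away. Cd36, the gene nearest to Ccnd2 by RNA level, thus stood at an anchor of Cdk6, with 5 reads.

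**Figure D4:**
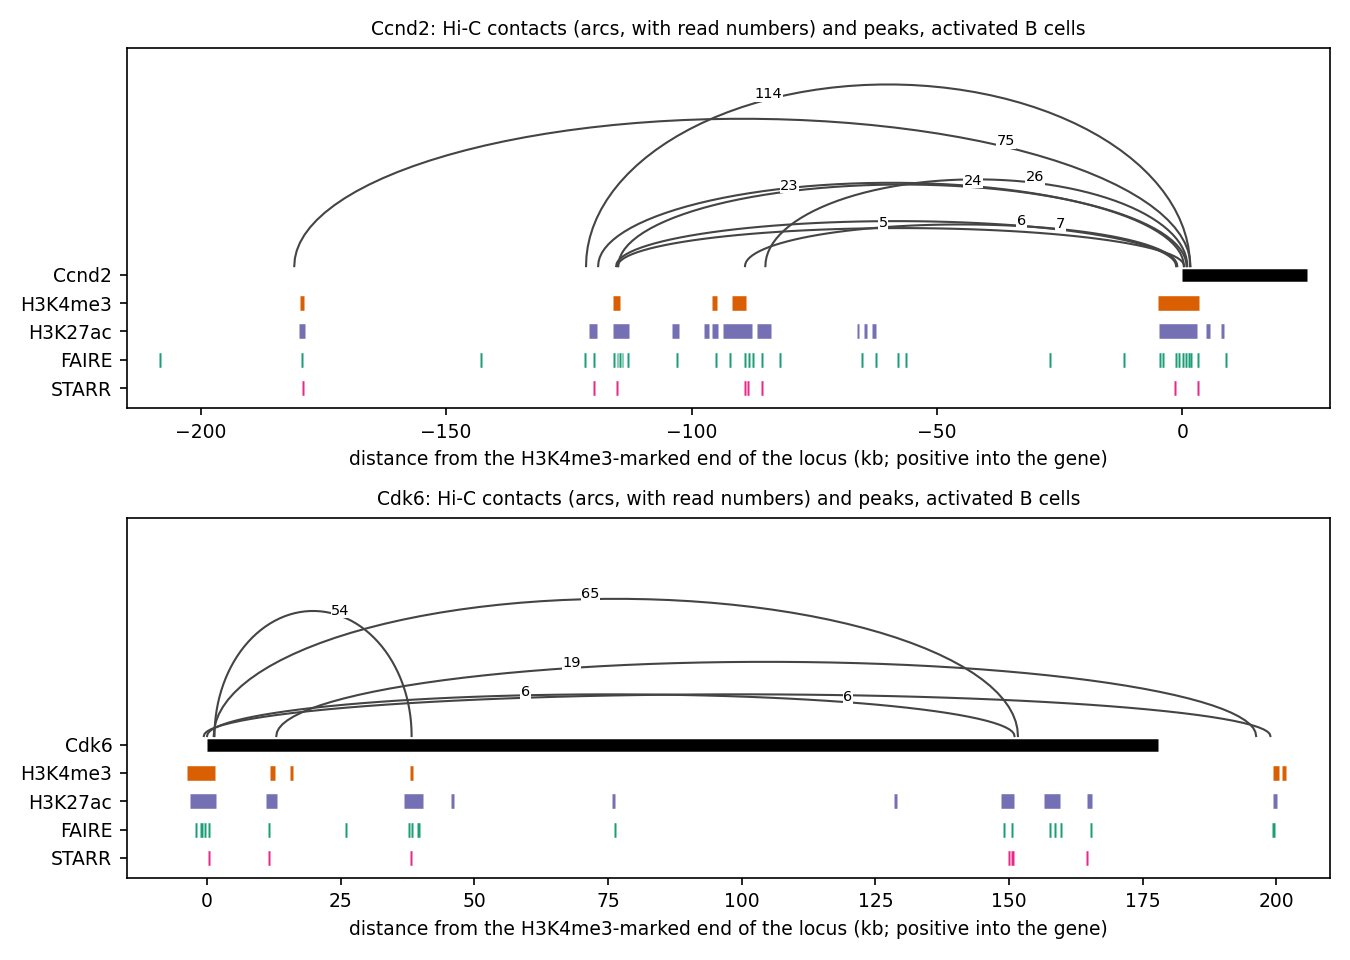
Hi-C contacts (arcs, with read numbers) and peaks along Ccnd2 and Cdk6 in activated B cells, by distance in kb from the H3K4me3-marked end; black bars are the loci, arc height grows with the square root of the reads, and contacts leaving the window are not drawn. The arcs of 114 and 75 reads run upstream of Ccnd2 to regions with STARR and H3K27ac peaks, and those of 54 and 65 reads stay inside Cdk6.

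Ccnd3 had 49 and 41 reads to the anchor of Tomm6 and Gm14872 at 185.0 and 173.9 kb, 18 to Med20 at 101.1 kb, 13 to Mrps10 at 136.4 kb and 5 to Bysl at 97.2 kb. All anchors of Ccnd3 contacts at the gene ended by chr17:47652808, so none lay at its H3K4me3 peak 89.5 kb into the gene. The shortest contact of Ccnd3 to another region, of 5 reads, met Taf8 at 3.03 kb. Farther ones of 5 to 7 reads reached Tfeb, Nfkbie and Slc35b2, Aars2, Slc29a1, Capn11, Mrps18a, Zfp318, Cdc5l and, farthest, Dus3l at chr17:56899288-56904288, 9254 kb away. Pairs of overlapping anchors at the locus itself carried 190 reads in Ccnd3, 160 in Ccnb2 and 356 in Cdk4, at distances of 2.06, 2.79 and 1.78 kb between anchor centres.

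Ccnb1 had contacts with the locus of Cdk7, a cell cycle kinase, from the end opposite its marked end. They had 50 and 10 reads (46.3 and 45.4 kb). The anchor with 10 reads, chr13:101545894-101547894, lay outside the Ccnb1 locus and was counted by the 1 kb window. Both anchors overlapped the one assigned to Cenph, a kinetochore gene. From the marked end, Ccnb1 met Mrps36 with 66 reads (53.8 kb, chr13:101501037-101506037) and Cenph with 8 reads (9.92 kb). The anchor of Mrps36 overlapped both far anchors assigned to Cdk7, so these contacts share a region. Bdp1, Pik3r1 and Cd180, the last 1924 kb away with 6 reads at chr13:103480586-103485586, were the other partners of Ccnb1. Ccnb2 had 34 reads to Myo1e at chr9:70051574-70056574 (214.5 kb), and 5 to 9 reads each to Bnip2, Rnf111, Fam63b and an anchor with no gene, up to 410.7 kb away at Bnip2. The anchor with no gene lay inside the wider anchor of Myo1e.

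Cdk2 and Cdk4 lie on 1 chromosome, 1631 kb apart. Cdk2 had 73 and 51 reads to Dgka at 31.7 and 41.3 kb, and Cdk4 had 13 reads (z-score 8.40) to the same gene at 1670 kb. A contact of 9 reads (z-score 5.97) joined Cdk2 to an anchor at LOC100504703, 3090 bases past the end of Cdk4, and 1 of 8 reads to an anchor at Agap2, 7283 bases past it. No contact in the list joined the 2 loci with both anchors within 1 kb. Of the 23 contacts of Cdk4 to other regions, 20 were longer than 1 Mb, against 35.8% of all contacts, and none had more than 13 reads. The farthest of Cdk4 reached Cpsf6 at chr10:116810310-116815310, 9693 kb away, with 5 reads, and those of 7 to 13 reads reached Nabp2, Esyt1, Smarcc2, Ormdl2 and Sarnp, Zc3h10 and Rpl41, Wibg, Coq10a and Ptges3. Contacts of 5 or 6 reads reached Irak3, Tbk1 and Xpot, Usp15, LOC100504608 and Pa2g4. The other partners of Cdk2 were Esyt1 (8 reads), Os9, Sarnp, B4galnt1, and Mbd6 with Ddit3 (5 or 6 reads each), and its farthest was the contact beside Cdk4, at 1632 kb. Dgka, Esyt1 and Sarnp thus stood at anchors counted for both kinases. The Cdk4 anchor of the Dgka contact, chr10:126504325-126509325, covered only the last bases of Cdk4. The rest of it lay past the end of Cdk4, on the side of Tspan31. The Cdk4 anchors of Sarnp (9 reads) and Esyt1 (11 reads) also lay mostly past that end. That of Esyt1 with 7 reads lay before the start of Cdk4, as did that of Usp15. The Cdk4 anchors of Ptges3 and of Tbk1 and Xpot lay wholly past its end, and those of Smarcc2 and Cpsf6 mostly so. Also wholly past it were the Cdk4 anchors of the contacts to chr10:120937922-120942922 and chr10:120943316-120948316, which held no gene. These contacts therefore cannot be assigned to Cdk4 alone.

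The E-type cyclins and Ccna2 had few reads per contact. Ccne1 had 5 contacts of 5 or 6 reads to E130304I02Rik, Nudt19, the anchor with Rab4b, Mir3101 and Mia, Siglecg and Bckdha, all over 2302 kb away and the farthest 12459 kb, at chr7:26429748-26434748. Ccne2 had 1, of 6 reads (z-score 14.6), to Rps20 at chr4:3758403-3763403, 7356 kb away. Ccna2 had 7 of 5 to 9 reads, the strongest to Acad9 at chr3:35961798-35966798 (509 kb), others to Actl6a, Kcnmb3 and Dnajc19, and the farthest to Mfsd8 and Gm2011 at chr3:40646759-40651759 (4176 kb). Ccnd1, low in activated cells, had 1 H3K4me3 peak, 1 STARR peak, no H3K27ac peak within 1 kb and no contact in the list.

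**Figure D5:**
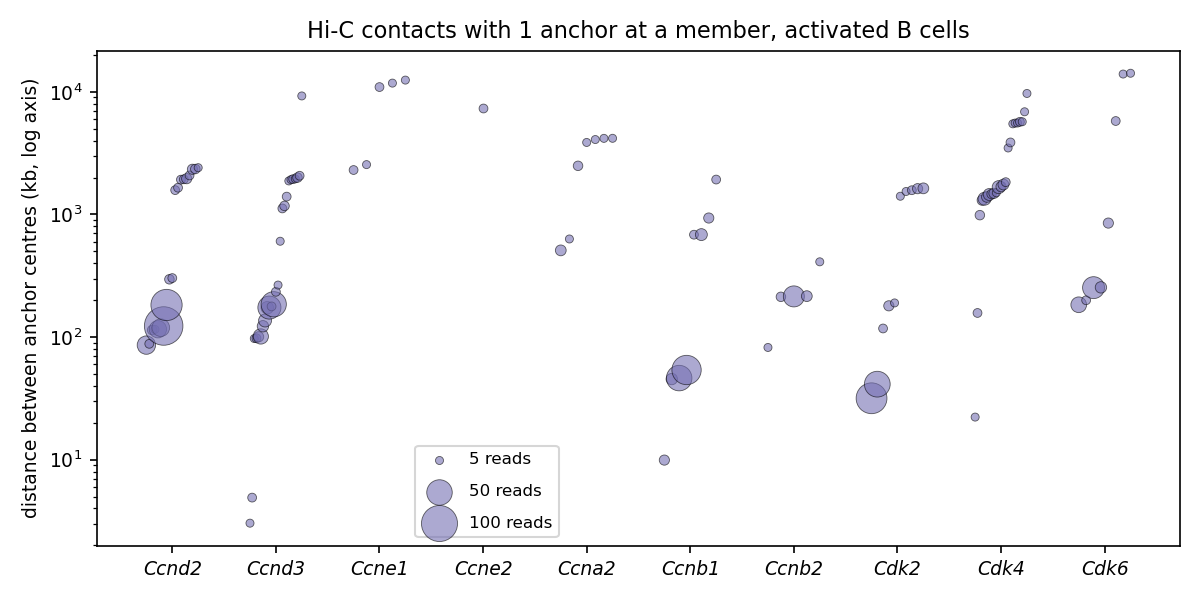
Distance between the 2 anchors (kb, log axis) of every contact with 1 anchor at a gene and the other elsewhere, with the area of a point proportional to its reads. Contacts with more than 13 reads all lie below 1 Mb, in Ccnd2, Ccnd3, Ccnb1, Ccnb2, Cdk2 and Cdk6, while those of Ccne1, Ccne2 and Cdk4 are mostly over 1 Mb and have at most 13 reads.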

How the data were processed

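RNA values were treated as FPKM because the deposited values are not whole and their sums differ between samples; no header or label names the unit, and read totals are unknown. Per the submitters' processing notes, Bowtie, Bowtie2, HOMER, bedtools, TopHat2, STAR and mm9 were used, with roles not given in the sources used here. Peak coordinates (deposited as a chromosome, start and end) carry no score or replicate. The authors' Hi-C list gives a read count and a z-score per contact over pooled replicates, used as deposited. No per-sample value column was left unmapped (0). Genes with at least 1 FPKM in 2 samples were tested with limma 3.58.1 (trend, robust, R 4.3.3) on log2(FPKM + 1), Benjamini-Hochberg over all tested genes, and the code was tested on simulated data. Shares used an exact permutation test (scipy). Of each list, up to 3 called genes with the largest difference, those against its majority, and Ccnd1, Ccna1 and Cdk1 are named; Cdkn2d has 2 rows and was left out, as was Hba-a1. Adgre1 and Jchain were matched by older symbols. Likeness names 2 genes per member. Peaks and anchors count within 1 kb, by 1 base. Members and lists were chosen with earlier results of these data known. Some genes at contact anchors of Cdk4 and Cdk6 are not reported here.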

Additional observations from a re-analysis of the deposited data

How the results depend on the processing

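Results were recomputed under 12 alternatives for RNA: pseudocount 0.1, no filter, a filter at 5 FPKM, 3 scalings, a replicate block, limma without trend and robust options, and each of the 4 samples left out. The number of cyclins and kinases called higher was 8 in the main analysis, 6 without a filter, 7 with the filter at 5 (where Ccne2 was not tested) and 7 to 8 with 1 sample left out; the number called lower was 0 throughout. Of 119 recomputed log2 differences, 109 kept direction and call and 5 lost the call, all of Ccne1 or Cdk6. Of 351 for the 30 other named cell cycle genes, recomputed after seeing the data, 341 kept direction and call, 10 lost the call and 0 reversed. With pseudocount 0.1 low genes moved most, Cdkn2a to 7.54, Cdc25c from 2.70 to 4.10, Cdkn2b from 2.44 to 3.64 and Mybl2 from 3.27 to 4.09. The difference of Ccnd3, never called, turned to -0.056 with equal sums, -0.088 with equal upper quartiles and -0.12 with quantile normalization, and ran from -0.19 (without resting replicate 1) to 0.28 (without resting replicate 2) with 1 sample left out, at -0.13 without activated replicate 2. Leaving out 1 sample gave shares of Ccnd2 49.7 to 56.8, of Ccne1 -19.9 to -16.4, of Ccnb1 5.38 to 13.4 and of Cdk6 -3.30 to -0.745 percentage points apart. Replicate numbers share only a number: deviations from the group means correlated at 0.124, and with the replicate block 8 were called higher and 0 lower, while calls over all genes went from 3066 to 3317 higher and from 2844 to 2964 lower. Over all genes, 1735 to 2859 were called higher and 1191 to 2834 lower with 1 sample left out, and the median difference moved to 0.13 without resting replicate 2. All 10 genes kept an H3K4me3 and an H3K27ac peak under every window; 9 had a FAIRE peak on the locus itself, and 8 a STARR peak within 1 kb of either end, a window chosen after seeing the data. Depth was unknown, which limits the low values of Ccne2, Ccnb1 and Cdk6.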
